A study of Homo sapiens with 24 samples.

Results

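ZNF genes encode zinc finger proteins, most of them of the C2H2 kind, named ZNF and a number. The genes described here were those with a symbol made of ZNF, digits and at most 1 letter, whose brightest probe set averaged at least 2.85 on the log2 scale over all 24 arrays. They numbered 157 of the 231 ZNF genes on the array, among 6782 genes that passed the same minimum and 11963 genes with 1 symbol in all. They were thus chosen by a measured value, their mean level, and that mean is given no test. The members nearest to the minimum were ZNF235 at 2.86, ZNF254 at 2.87 and ZNF112 at 2.89, and the ZNF genes just outside were ZNF696 at 2.81, ZNF324B at 2.80 and ZNF141 at 2.76.

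The study looked for messenger RNAs bound directly by 3 microRNAs, miR-130a, miR-203 and miR-205, within LNCaP, an established human prostate cancer line of luminal, androgen-responsive cells. A plasmid for 1 of the microRNAs was put into the cells by nucleofection, a form of electroporation, at 2.5 µg. RNA was taken either from an immunoprecipitate of AGO2 made with an antibody to that protein, or from the whole cells, and 2 µg was put on an Affymetrix Human Genome U133A 2.0 array. The 8 groups were AGO2-bound RNA after miR-130a, miR-203, miR-205 and scramble, and total RNA after miR-130a, miR-203, miR-205 and scramble, each with 3 arrays labelled as biological replicates. All cells, scramble included, were LNCaP cells that had gone through nucleofection. The labels name no separate cultures behind the replicates, so each p-value reflects only how far these arrays differ, which may be technical.

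C2H2 zinc finger proteins bind DNA through rows of short zinc-holding fingers, and they form the largest group of human transcription factors. Many carry a KRAB domain, which recruits the co-repressor TRIM28 and with it the histone methyltransferase SETDB1, a route known for keeping transposable elements silent. Large families of such genes arose by repeated duplication and lie in clusters, many of them on chromosome 19. AGO2 is the Argonaute protein that holds a microRNA and pairs its seed, the bases near the 5′ end, with sites in messenger RNAs. The immunoprecipitate of a microRNA is therefore set beside that of the scramble control.

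The mature microRNAs named for these plasmids are shown because their seeds are what AGO2 pairs with messenger RNAs. Bases 2 to 8, the seed, are in capitals. The sequences are from RefSeq on GRCh38.p14, where hsa-miR-205-5p lies at chr1:209432166-209432187 and hsa-miR-203a-3p at chr14:104117469-104117490, both on the plus strand, and the seeds of the pair differ. The third microRNA is miR-130a.
hsa-miR-205-5p: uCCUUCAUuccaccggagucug
hsa-miR-203a-3p: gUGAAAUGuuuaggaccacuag

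The deposited values were log2 levels. Their lowest value was shared within 3 sets of arrays, namely the miR-130a arrays, the miR-203 arrays, and the miR-205 and scramble arrays together. These appear to be 3 normalization runs, so that run and transfection cannot be told apart for miR-130a and miR-203 against scramble, while miR-205 shared its run with scramble. Of 4 luminal prostate markers on the array, KLK3 averaged 10.5 to 13.4, KLK2 7.23 to 10.8, TMPRSS2 6.94 to 8.49 and FOLH1 2.64 to 4.21 over the groups. The basal, stromal, blood and endothelial markers, 9 of them, lay at or near the floor except COL1A1, at 3.19 to 4.38. The difference between 3′ and 5′ probe sets of ACTB, a sign of RNA integrity, ran from 3.20 to 3.94 on AGO2-bound miR-205 arrays, 2.22 to 2.78 after miR-130a, 2.30 to 2.93 with miR-203 and 2.93 to 3.84 after scramble. The miR-205 and scramble arrays thus overlapped, and the miR-205 arrays lay above those of miR-130a and miR-203. The mean of the spiked control probe sets ran from 6.57 to 8.35 on the AGO2-bound miR-205 arrays and from 7.08 to 7.93 on those of scramble. The 2 kinds of RNA differed in both measures. Group means of the ACTB difference were 2.07 to 2.24 in total RNA and 2.55 to 3.45 in AGO2-bound RNA. Those of the spiked controls were 6.06 to 6.28 and 7.27 to 7.48. The part of RNA integrity or of the spiked signal in the changes below, and in the comparisons of AGO2-bound with total RNA, was not tested.

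As a set the ZNF genes stood higher in AGO2-bound RNA after miR-205 than in any other group. The median level of the 157 members on the single arrays was 5.25, 5.30 and 5.29 there, 4.14, 4.33 and 4.39 on the miR-130a arrays, 4.25, 4.21 and 4.39 on the miR-203 arrays, and 4.31, 4.44 and 4.49 after scramble. In total RNA the same median lay between 4.18 and 4.38 on all 12 arrays. The AGO2-bound miR-205 arrays did not overlap any others in this median. AGO2-bound RNA after miR-205 had the highest mean of the 4 AGO2 groups for 94 members, 59.9% of them, against 24.8% of all genes tested. Its 3 arrays lay above all 21 other arrays at 58 members (36.9%), against 8.05% of all genes tested. The minimum used these arrays too, and with it set on the 21 others the 2 shares of members were 57.7% and 34.2%, against 24.5% and 7.8% of genes.

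The probe sets brightest over all arrays were those of ZNF217, ZNF706, ZNF207, ZNF146, ZNF91 and ZNF274, in that order, with means between 9.28 and 8.01. Brightness depends on the probes, so this order is not one of transcript abundance. ZNF217, an oncogene amplified in breast cancer, read 9.85, 10.13 and 10.14 on the miR-130a arrays of AGO2-bound RNA. It read 10.14, 10.42 and 10.73 on those of miR-203, 10.40, 10.67 and 11.45 on those of miR-205 and 10.33, 11.03 and 10.81 on those of scramble. The miR-130a arrays lay below those of miR-205 and scramble and met those of miR-203 at 10.14. The other 3 groups overlapped, and none of the 3 changes of ZNF217 against scramble passed the test. At the dim end, 5 members averaged under 3 in AGO2-bound RNA after miR-205, against 20 after scramble, where ZNF genes near the floor can show no fall. ZNF235 lay at the floor on all AGO2-bound miR-203 arrays, where it has only an upper bound.

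The first question was which of these transcripts AGO2 held more or less of after miR-205. Of the 157 members, 73 rose and 12 fell in AGO2-bound RNA against scramble (limma, adjusted p under 0.05 over 6782 genes). The test called 44.0% of all genes, 20.4% higher and 23.7% lower, while 46.5% of the members were higher and 7.64% lower. The median change was 0.41 over the members and -0.06 over all genes (log2), and 52 members rose by at least 2-fold, where 9.38% of all genes did. These counts cover all 157 members, also the 8 that would have missed the minimum without the AGO2-bound miR-205 arrays. The 73 rises are recounted without them further below, and the 52 were not recounted. A higher level in the precipitate can come from more cells that hold the transcript on AGO2 or from more of it per cell, which cannot be told apart.

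ZNF184, a KRAB gene on chromosome 6, had the largest rise. It read 8.14, 8.17 and 8.24 after miR-205, against 3.63, 3.79 and 4.11 after scramble, a change of 4.34 ± 0.17 (adjusted p = 4.6e-10) or 20.3-fold. ZNF79 read 6.50, 7.04 and 7.15 after miR-205 and 2.70, 2.59 and 2.70 after scramble, a change of 4.24 ± 0.17 (adjusted p = 4.1e-10). ZNF551 stood at 8.90, 8.85 and 8.77, against 4.83, 4.44 and 4.68 in the scramble precipitate, which gave 4.19 ± 0.13 (adjusted p = 1.3e-10). For each of the 3 genes the AGO2-bound arrays of miR-205 lay more than 2 log2 units above every other array of the series.

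The other large rises were of the same kind. ZNF571, a KRAB gene of chromosome 19, had 7.72, 7.98 and 8.25 after miR-205 and 3.66, 3.98 and 4.10 after scramble, a change of 4.07 ± 0.18 (adjusted p = 9.7e-10). ZNF354A, a KRAB gene of chromosome 5, read 8.08, 8.18 and 8.12 after miR-205, against 4.24, 3.96 and 4.18. Its means were 8.13 ± 0.05 and 4.13 ± 0.15 (SD, n = 3 each; adjusted p = 4.1e-10 in the limma fit). ZNF83, an unclassed gene of chromosome 19, read 9.34, 9.36 and 9.30 in the miR-205 precipitate, against 5.50, 5.18 and 5.43 in that of scramble (3.96 ± 0.19 (adjusted p = 1.9e-09)). None of these 3 genes overlapped between the groups, but that was a condition for naming the largest rises and falls and is no further support. ZNF606 read 7.79, 8.50 and 8.54 after miR-205 and 4.06, 4.33 and 4.57 after scramble, a change of 3.96 ± 0.21 (adjusted p = 4.5e-09). Total RNA of all 4 did not move past the threshold after miR-205, with changes of -0.00 ± 0.16, -0.17 ± 0.12, -0.05 ± 0.17 and 0.12 ± 0.12. The next rises, of ZNF34, ZNF195, ZNF211, ZNF267, ZNF180 and ZNF85, were between 3.07 and 3.73, as the map of levels on each array shows.

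**Figure D1:**
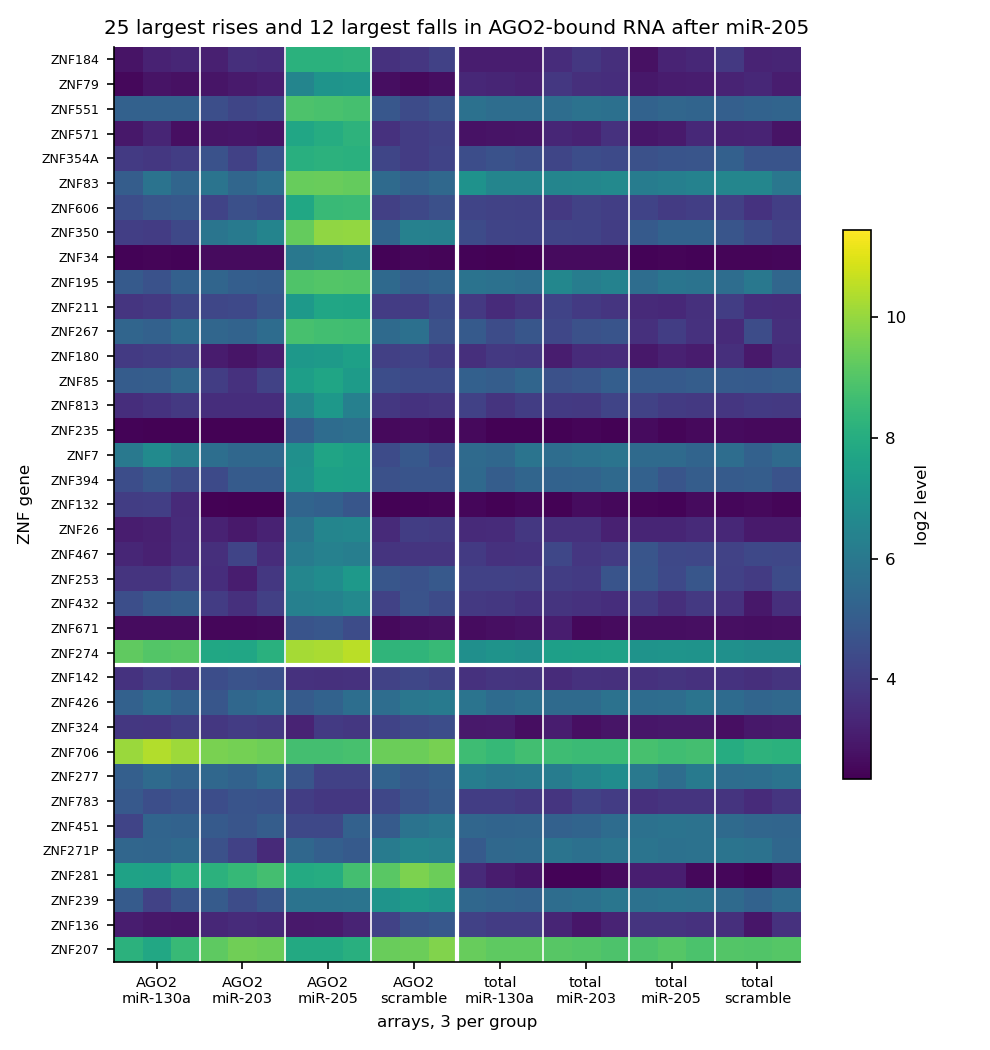
Log2 level (colour) of the 25 ZNF genes with the largest rises, above the white line, and the 12 that fell, below it, in AGO2-bound RNA after miR-205; each column is 1 array, 3 per group, AGO2-bound RNA left of total RNA. The miR-205 columns of AGO2-bound RNA are bright in the upper block, where the other AGO2 groups and all total RNA groups stay dark for most genes.

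Among these members were genes with known work on chromatin. ZNF350, also called ZBRK1, is a partner of BRCA1 that represses GADD45A. It read 9.30, 9.94 and 9.97 in AGO2-bound RNA after miR-205, against 5.29, 6.35 and 6.31 after scramble, a change of 3.75 ± 0.27 (adjusted p = 8.1e-08). ZNF274 brings SETDB1 and TRIM28 to the 3′ ends of other zinc finger genes. It read 10.21, 10.30 and 10.52 after miR-205 and 8.32, 8.30 and 8.49 after scramble, a rise of 1.98 ± 0.15 (adjusted p = 1.1e-07). ZNF91, which represses SVA retrotransposons, read 9.11, 9.30 and 9.81 after miR-205, against 7.33, 7.32 and 7.64 (1.98 ± 0.25 (adjusted p = 2e-05)). For ZNF350, ZNF274 and ZNF91 the 2 groups of arrays were apart, which for ZNF350 was a condition of its choice. ZNF473, a part of the machinery that processes histone messenger RNAs, rose by 1.00 ± 0.14 at its brightest probe set and by 2.33 ± 0.15 at a second one.

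Of the 73 rises, 51 were of KRAB genes. The classes were assigned from general knowledge of the proteins and not from a file, and 34 members were left unclassed. They were written with earlier results of these data known, so they are not independent of the changes. The 75 KRAB members gave these 51 rises and 3 falls, with a median change of 1.22, and 39 rose by at least 2-fold. Of all genes tested 20.4% rose, and 9.38% rose by at least 2-fold. Counts by class, by chromosome and by probe set name cover all 157 members. They include 8 that would have missed the minimum without the AGO2-bound miR-205 arrays, and were not recounted without those 8. Of 48 members without a KRAB domain, 10 rose and 7 fell, with a median of 0.08, and of the unclassed 12 rose and 2 fell, with a median of 0.28. In total RNA after miR-205 the same KRAB members gave 7 rises and 1 fall with a median of 0.05; the 9.33% higher was near the 10.1% of all genes. The median level of the KRAB members on the AGO2-bound arrays was 5.71, 5.97 and 6.04 after miR-205, against 4.24, 4.37 and 4.48 after scramble, while members without KRAB read 4.65, 4.62 and 4.94 after miR-205, against 4.61, 4.63 and 4.75 after scramble. The KRAB levels of the 2 groups did not overlap and those of the other class did.

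**Figure D2:**
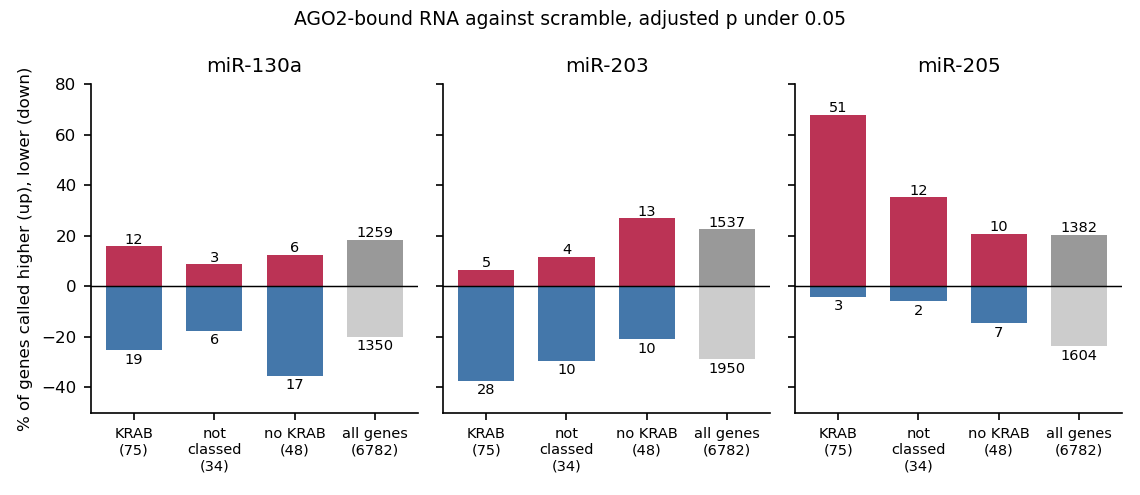
Percent of genes called higher (upward bars) or lower (downward bars) than scramble in AGO2-bound RNA after each microRNA, for ZNF members with a KRAB domain, unclassed members, members without one, and all genes tested (grey); the figures at the bars are gene counts. The tallest bar is that of the KRAB class after miR-205, with 51 of 75 genes higher. The bars of members include 8 that would have missed the minimum without the AGO2-bound miR-205 arrays. The classes were written by hand with earlier results of these data known.

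Chromosome 19 held 69 members, of which 41 rose (59.4%) and 3 fell (4.35%) after miR-205 in AGO2-bound RNA, with a median of 0.94. On other chromosomes 32 of 88 rose and 9 fell (36.4% and 10.2%), with a median of 0.22. Over all genes 20.4% were higher and 23.7% lower. The 27 KRAB members outside chromosome 19 gave 20 rises and no fall, with a median of 1.58, and the 48 KRAB members on it 31 rises and 3 falls, with a median of 0.99. No difference between these classes was tested.

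Many of these genes are close relatives, and a probe can read more than 1 of them. The best probe set was gene-specific by its name for 90 members and ended in _s_at for 42, _x_at for 24 and _f_at for 1, endings given to probe sets that can match several transcripts. After miR-205, 44 of the 90 gene-specific members rose and 7 fell (48.9% and 7.78%), with a median of 0.47. Of the other 67 members, 29 rose and 5 fell (43.3% and 7.46%), with a median of 0.38. Over all genes tested 20.4% were higher and 23.7% lower, and kinds of probe set were not counted apart there. ZNF184, ZNF571, ZNF354A, ZNF606 and ZNF350 were read by gene-specific probe sets, and ZNF79, ZNF551 and ZNF83 by others, so that signal from relatives is uncertain for these 3. For ZNF79 a gene-specific second probe set rose by 5.03 ± 0.16. Of 28 members with several probe sets above the minimum, 15 had one called after miR-205. In 9 of these all were called the same way, in 6 only some, and in none were they called in opposite directions. The same was not counted over all genes.

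Because the minimum is on the mean of all arrays, a gene can be a member through the AGO2-bound miR-205 arrays alone. Without those arrays 8 members would have missed it, namely ZNF34, ZNF112, ZNF132, ZNF205, ZNF235, ZNF254, ZNF671 and ZNF675, and all 8 were called higher. With the minimum set on the other 21 arrays, 65 of 149 members rose (43.6%) and 12 fell, with a median of 0.35, against 20.2% of the genes that passed in that way. The median level of these 149 members was 5.29 to 5.36 on the AGO2-bound arrays of miR-205, against 4.44 to 4.66 on those of scramble. With no minimum at all, 78 of the 231 ZNF genes rose and 10 fell, or 33.8% and 4.33%, against 10.3% and 10.7% of all 11963 genes. Below the minimum lay 74 ZNF genes, of which 11 rose (14.9%) and none fell, though genes this near the floor can show little fall. How many of all genes under the minimum rose was not counted, so the 14.9% has no like share beside it. The strongest of the 11 rises was that of ZNF141, which read 5.17, 4.97 and 5.78 after miR-205, against 2.37, 2.35 and 2.46 after scramble, a change of 2.91 ± 0.17 (adjusted p = 8.6e-06).

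The 12 falls included members without a KRAB domain that were bright under scramble. ZNF207, also called BuGZ, helps load BUB3 at kinetochores. It read 7.87, 7.88 and 8.08 after miR-205, against 9.38, 9.42 and 9.72 after scramble, a change of -1.56 ± 0.17 (adjusted p = 5.8e-06), and its second probe set fell too, by 1.31. ZNF239 read 5.81, 5.83 and 5.85 after miR-205 and 7.05, 7.30 and 7.08 after scramble (-1.31 ± 0.19 (adjusted p = 8.6e-05)). ZNF281, a factor that binds GC-rich DNA in stem cells, had 7.91, 7.97 and 8.73 after miR-205, against 9.14, 9.66 and 9.41 (-1.20 ± 0.23 (adjusted p = 0.00079)). In these 3 genes no miR-205 array reached a scramble array, as their choice required. ZNF136, a KRAB gene, changed by -1.47 ± 0.17 and the transcribed pseudogene ZNF271P by -1.17 ± 0.23. The small protein gene ZNF706 changed by -0.71 ± 0.13 in AGO2-bound RNA and by 0.60 ± 0.09 in total RNA.

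The microRNA precipitates were also compared with each other, which leaves scramble out. AGO2-bound RNA after miR-205 was higher than after miR-203 at 91 members and lower at 16, where 53.4% of all genes were called, 27.9% higher and 25.5% lower. It was higher than after miR-130a at 85 and lower at 9, where 49.1% were called, 23.8% higher and 25.3% lower. These comparisons cross the apparent normalization runs, and the ACTB difference also set the miR-205 arrays apart from those of miR-203 and miR-130a. Their counts cover also the 8 members that would have missed the minimum without the AGO2-bound miR-205 arrays, and were not recounted. ZNF184 differed by 4.78 ± 0.17 between miR-205 and miR-203 and by 5.06 ± 0.17 between miR-205 and miR-130a. After miR-203 against miR-130a, 28 members were higher and 39 lower (55.0% of all genes called, 26.0% higher and 29.0% lower). After centring every array at its median 37 were higher and 36 lower, so this split has no firm direction.

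**Figure D3:**
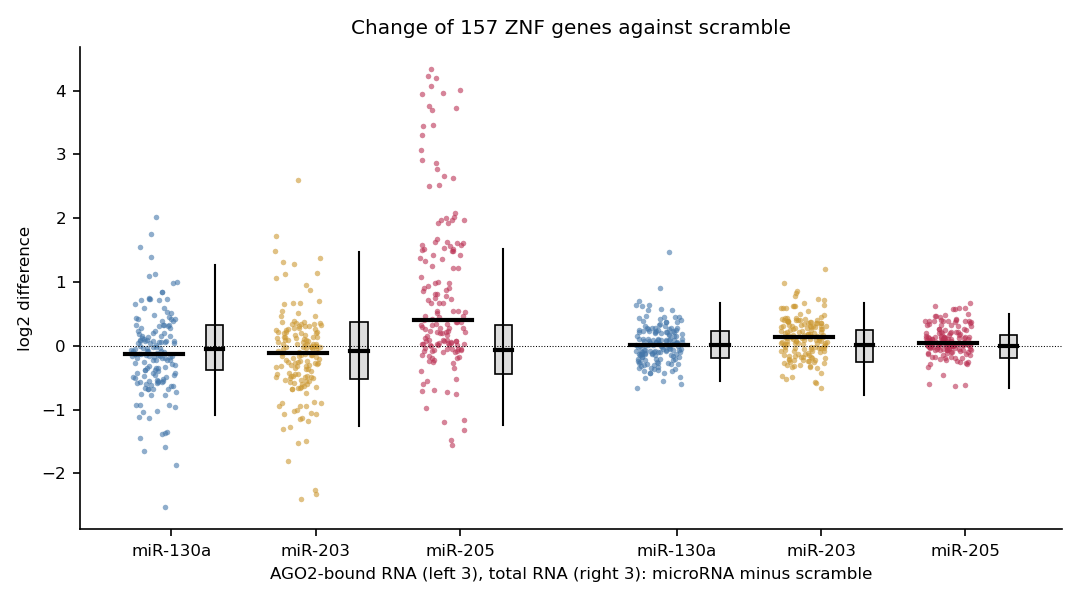
Log2 difference from scramble of each of the 157 ZNF genes (points; thick line, their median) in AGO2-bound RNA (left 3 columns) and total RNA (right 3 columns) after miR-130a, miR-203 and miR-205; beside each column a box gives the quartiles and median of all 6782 genes tested and its whiskers their 5th and 95th percentiles. The miR-205 column of AGO2-bound RNA reaches 4.34 with a median of 0.41, and total RNA points stay between -0.66 and 1.47.

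After miR-203 more ZNF members fell than rose in AGO2-bound RNA, as was so over all genes. Of 157 members 22 rose and 48 fell against scramble, where the test called 51.4% of all genes, 22.7% higher and 28.8% lower. The median change was -0.12 over the members and -0.09 over all genes, and the shares of members higher and lower were 14.0% and 30.6%. The share that fell was thus near that of all genes, and the share that rose was lower. KRAB members gave 5 rises and 28 falls with a median of -0.25, and members without KRAB 13 rises and 10 falls with a median of 0.02. The 48 KRAB members on chromosome 19 gave 2 rises and 21 falls.

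ZNF593, whose protein takes part in ribosome assembly, had the largest rise after miR-203. It read 6.54, 7.16 and 6.30 after miR-203, against 4.14, 4.02 and 4.06 after scramble, a change of 2.59 ± 0.22 (adjusted p = 5e-07) or 6.04-fold. ZNF8 read 4.39, 5.13 and 4.67 after miR-203 and 3.03, 3.00 and 3.02 after scramble (1.72 ± 0.17 (adjusted p = 2.7e-06)). ZNF212, a KRAB gene, averaged 6.33 ± 0.30 after miR-203 and 4.84 ± 0.08 after scramble (SD, n = 3 each), a change of 1.49 ± 0.23 (adjusted p = 0.00013) by limma. In each the miR-203 arrays stood above the scramble arrays, as their choice required. Further rises were 1.38 ± 0.15 for ZNF672, 1.31 ± 0.17 for the nucleolar protein gene ZNF330, 1.28 ± 0.24 for ZNF32, 1.14 ± 0.17 for ZNF592 and 1.13 ± 0.21 for ZNF580, all genes without KRAB.

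Falls after miR-203 reached 5.3-fold. ZNF239 read 4.94, 4.47 and 4.79 after miR-203, against 7.05, 7.30 and 7.08 after scramble, a change of -2.41 ± 0.19 (adjusted p = 3.1e-07). ZNF430, a KRAB gene of chromosome 19, read 3.72, 3.51 and 4.07 after miR-203 and 5.71, 5.99 and 6.56 after scramble (-2.32 ± 0.26 (adjusted p = 5.9e-06)), through a probe set that can read relatives. ZNF271P read 4.61, 4.10 and 3.44, against 6.13, 6.45 and 6.36 (-2.26 ± 0.23 (adjusted p = 3e-06)). The arrays of these 3 genes did not overlap, as their choice required. ZNF322 changed by -1.80 ± 0.26 and ZNF623 by -1.53 ± 0.21.

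After miR-130a, 21 of 157 members rose and 42 fell in AGO2-bound RNA against scramble, 13.4% and 26.8% of them, where 38.5% of all genes were called, 18.6% higher and 19.9% lower. The median change was -0.12, against -0.05 over all genes. KRAB members gave 12 rises and 19 falls with a median of -0.09, and members without KRAB 6 rises and 17 falls with a median of -0.22. By size, 12 members fell and 6 rose by at least 2-fold, where 5.75% of all genes fell and 7.67% rose by as much.

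ZNF443, a KRAB gene of chromosome 19, had the largest rise after miR-130a. It read 7.67, 7.87 and 7.91 after miR-130a, against 5.54, 5.88 and 5.99 after scramble, a change of 2.02 ± 0.20 (adjusted p = 3e-06) or 4.05-fold. ZNF518A averaged 6.22 ± 0.20 after miR-130a and 4.68 ± 0.06 after scramble (SD, n = 3 each), a change of 1.54 ± 0.20 (adjusted p = 2.7e-05) by limma. ZNF132 read 4.01, 4.04 and 3.42, against 2.40, 2.44 and 2.46 close to the floor (1.39 ± 0.17 (adjusted p = 2.4e-05)), and is a member only through its levels after miR-130a and miR-205. These 3 genes did not overlap between the groups, as their choice required. ZNF500 rose by 1.13 ± 0.17 through a probe set that can match several transcripts, but its gene-specific probe set gave 0.45 and missed the threshold.

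ZNF239 had the largest fall here as well, and read 4.96, 4.13 and 4.75 after miR-130a, against 7.05, 7.30 and 7.08 after scramble (-2.53 ± 0.19 (adjusted p = 2.6e-07)). ZNF350 read 4.03, 3.98 and 4.32 after miR-130a and 5.29, 6.35 and 6.31 after scramble (-1.87 ± 0.27 (adjusted p = 8.4e-05)). ZNF281 read 7.59, 7.57 and 8.07 after miR-130a, against 9.14, 9.66 and 9.41 (-1.66 ± 0.23 (adjusted p = 6.4e-05)). No array of miR-130a reached the scramble arrays in any of them, as their choice required. ZNF136 changed by -1.58 ± 0.17 and ZNF232 by -1.44 ± 0.17.

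The 3 comparisons share the scramble arrays, so a low or high scramble value would enter all of them, and their values are given side by side. ZNF7, a KRAB gene of chromosome 8, changed by 1.74 ± 0.22 after miR-130a, 0.88 ± 0.22 with miR-203 and 2.77 ± 0.22 after miR-205. ZNF330 changed by 0.98 ± 0.17, 1.31 ± 0.17 and 0.91 ± 0.17 in that order, and ZNF574 by 2.13-fold, 1.43-fold and 2.83-fold. ZNF239 had -2.53 ± 0.19, -2.41 ± 0.19 and -1.31 ± 0.19, ZNF136 had -1.58 ± 0.17, -1.15 ± 0.17 and -1.47 ± 0.17, and ZNF271P had -0.94 ± 0.23, -2.26 ± 0.23 and -1.17 ± 0.23. ZNF281 had -1.66 ± 0.23, -0.95 ± 0.23 and -1.20 ± 0.23, and the KRAB gene ZNF324 had -0.48 ± 0.17, -0.47 ± 0.17 and -0.70 ± 0.17. For ZNF324 the call after miR-130a ended without scramble replicate 3 (-0.42) and the call after miR-203 likewise (-0.40), and for ZNF574 the call after miR-203 ended without miR-203 replicate 2 (0.46).

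Some members were called in opposite directions by different microRNAs. ZNF350 changed by -1.87 ± 0.27 after miR-130a, 0.18 ± 0.27 with miR-203 and 3.75 ± 0.27 after miR-205. ZNF623 changed by -0.95 ± 0.21, -1.53 ± 0.21 and 1.63 ± 0.21 after the same 3, and ZNF253, a KRAB gene, by -0.93 ± 0.21, -1.28 ± 0.21 and 2.08 ± 0.21. In ZNF350 and ZNF623 the direct comparison of miR-205 with miR-130a gave 5.62 ± 0.27 (adjusted p = 1.6e-09) and 2.59 ± 0.21 (adjusted p = 2e-07). ZNF45, a KRAB gene of chromosome 19, went by -1.38 ± 0.24, -0.94 ± 0.24 and 1.21 ± 0.24. ZNF32 went another way, with -1.12 ± 0.24 after miR-130a, 1.28 ± 0.24 with miR-203 and -0.24 ± 0.24 after miR-205, and miR-203 against miR-130a gave 2.40 ± 0.24 (adjusted p = 1.9e-06).

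**Figure D4:**
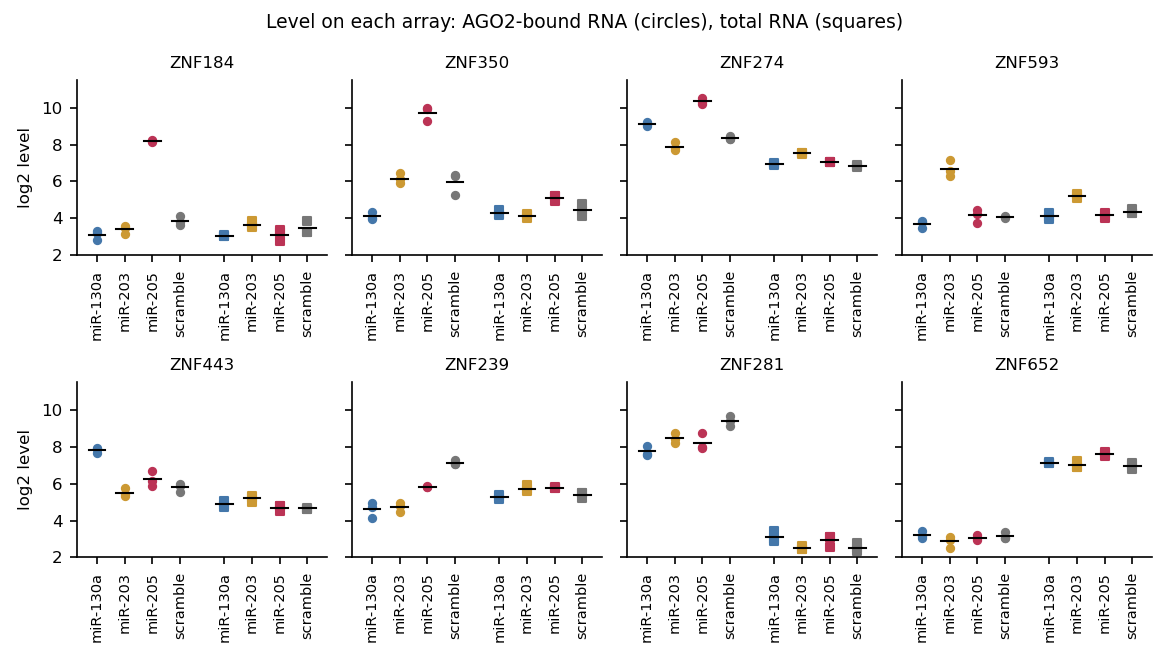
Log2 level of 8 ZNF genes on each array (points, 3 per group; line, group mean) in AGO2-bound RNA (circles) and total RNA (squares) after miR-130a, miR-203, miR-205 and scramble. ZNF184, ZNF350 and ZNF274 peak in AGO2-bound RNA after miR-205, ZNF593 after miR-203 and ZNF443 after miR-130a, and ZNF281 and ZNF652 differ most between the 2 kinds of RNA.

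Total RNA asked whether the same transcripts changed in the cells as a whole. After miR-205, 16 of 157 members rose and 4 fell, where 23.5% of all genes were called, 10.1% higher and 13.3% lower, and the median change was 0.05, against -0.01 over all genes. No member moved by 2-fold. After miR-203, 36 rose and 10 fell (39.6% of all genes called, 19.8% higher and 19.8% lower) with a median of 0.14, against 0.01. After miR-130a, 18 rose and 15 fell (29.3% of all genes called, 15.9% higher and 13.3% lower) with a median of 0.02, and after centring every array at its median 12 rose and 23 fell, so the split has no firm direction. Without miR-130a replicate 3 the count of 33 became 18, and without miR-205 replicate 1 the count of 20 became 12.

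The largest total RNA change of a member was that of ZNF93, a KRAB gene known for repressing LINE-1 elements. It read 4.46, 4.14 and 4.59 after miR-130a, against 2.74, 3.19 and 2.86 after scramble (1.47 ± 0.15 (adjusted p = 2.5e-05)). After miR-203 it read 4.01, 4.14 and 4.25, against the same scramble arrays (1.20 ± 0.15 (adjusted p = 7.2e-05)). Its probe set can match several transcripts, and both changes cross the apparent normalization runs. In AGO2-bound RNA ZNF93 changed by 1.00 ± 0.14 after miR-130a and 0.70 ± 0.14 after miR-203.

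Other total RNA changes were under 2-fold. After miR-130a ZNF267 rose by 0.91 ± 0.23 and ZNF200 by 0.69 ± 0.12, and ZNF408 fell by 0.66. ZNF174 read 3.18, 3.14 and 3.18 after miR-130a and 3.73, 3.77 and 3.77 after scramble (-0.59 ± 0.10 (adjusted p = 0.00087)). The 3 scramble arrays of ZNF174 in AGO2-bound RNA were equal within 0.01, and its probe sets gave opposite calls in AGO2-bound RNA after miR-203 (-0.43 and 0.44). ZNF839 did the same after miR-130a (-0.45 and 0.57) and after miR-203 (-0.44 and 0.41), so the direction of both genes is uncertain. After miR-203 ZNF134 rose by 0.98 ± 0.13, ZNF593 by 0.86 ± 0.12 and ZNF573 by 0.83 ± 0.19, and ZNF395, ZNF665, ZNF264 and ZNF32 fell by 0.65, 0.58, 0.56 and 0.52.

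After miR-205 the total RNA of ZNF350 rose by 0.66 ± 0.15 (adjusted p = 0.0056). It read 4.92, 5.20 and 5.21 after miR-205, against 4.76, 4.44 and 4.14 after scramble, with no overlap, as its choice required. ZNF652, a repressor that works with CBFA2T3, rose by 0.62 ± 0.11, ZNF706 by 0.60 ± 0.09 and the KRAB gene ZNF667 by 0.59 ± 0.14. The 4 falls, of ZNF165, ZNF688, ZNF358 and ZNF106, were between -0.63 and -0.47 and each hung on single arrays. Without miR-205 replicate 1 the calls of ZNF106 (-0.45), ZNF165 (-0.60) and ZNF358 (-0.49) ended, and without scramble replicate 1 that of ZNF688 (-0.48).

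**Figure D5:**
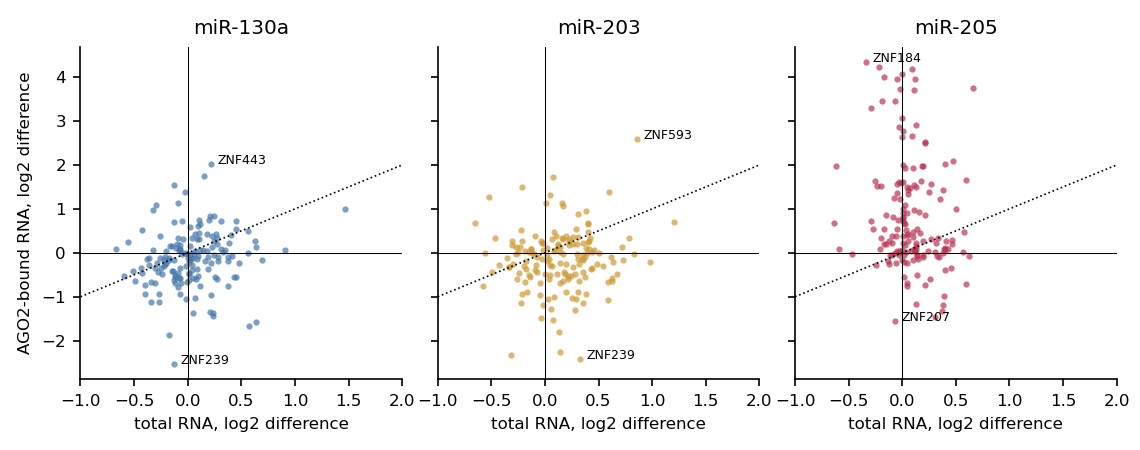
Log2 difference from scramble in AGO2-bound RNA (vertical) against total RNA (horizontal) for the 157 ZNF genes after each microRNA; the dotted line marks equal change and the gene with the largest rise and fall is named. After miR-205 the points spread upward while total RNA stays within 0.66 of 0.

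Across the 157 members the AGO2-bound and total RNA changes correlated at 0.15 after miR-130a, 0.09 with miR-203 and -0.18 after miR-205 (Pearson's r, a description across genes of the same arrays). The SD of the AGO2-bound change over members was 1.28 after miR-205, against 0.23 for total RNA. The AGO2-bound change beyond that of total RNA, fitted over 24 arrays, was higher at 73 members and lower at 15 after miR-205, where 42.8% of all genes were called, 21.1% higher and 21.7% lower, with a median of 0.41. It was higher at 15 and lower at 54 after miR-203 (49.1% of all genes, 22.1% higher and 27.0% lower), with a median of -0.23. After miR-130a it was higher at 17 and lower at 31 (34.5%, with 16.2% and 18.4%). The miR-205 counts cover also the 8 members that would have missed the minimum without its AGO2-bound arrays, and were not recounted.

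The largest such differences after miR-205 were 4.68 ± 0.25 (adjusted p = 2.7e-13) for ZNF184, 4.46 ± 0.20 for ZNF79 and 4.17 ± 0.20 for ZNF354A. ZNF136 had the lowest value, -1.78 ± 0.24 (adjusted p = 1.8e-06), followed by ZNF239 with -1.69 ± 0.23, ZNF281 with -1.58, ZNF207 with -1.49 and ZNF451, a SUMO ligase gene, with -1.37 ± 0.35. The AGO2-bound arrays of ZNF451 overlapped, at 4.32, 4.33 and 5.17 after miR-205 and 4.98, 5.80 and 5.99 after scramble. A second probe set of ZNF451 changed by 0.18 there and missed the threshold, so its fall is uncertain. After miR-203 ZNF32 stood at 1.80 ± 0.27 (adjusted p = 7.4e-06) and ZNF395 at 1.33 ± 0.23, both with a rise in AGO2-bound RNA and a fall in total RNA. At the other end were ZNF239 with -2.74 ± 0.23 (adjusted p = 6.7e-10) and the KRAB gene ZNF586 with -1.65 ± 0.19. After miR-130a the range ran from -2.40 ± 0.23 (adjusted p = 1.1e-08) for ZNF239 to 1.80 ± 0.24 (adjusted p = 1.5e-06) for ZNF443.

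Within a transfection AGO2-bound RNA was set against total RNA of the same apparent run. After miR-205 AGO2-bound RNA was higher at 96 members and lower at 29, where 72.7% of all genes were called, 36.6% higher and 36.1% lower. It was higher at 42 and lower at 45 after miR-130a (71.6% of all genes called, 33.3% higher and 38.3% lower), and at 48 and 43 after quantile normalization. It was higher at 39 and lower at 60 after miR-203 (71.9%, with 34.7% and 37.2%). Under scramble it was higher at 60 and lower at 42 (72.9%, with 35.1% and 37.8%). The member count after miR-205 was thus 61.1% higher, against 38.2% under scramble. These are relative levels, since each kind of RNA was put on the arrays in the same amount. The miR-205 counts cover also the 8 members that would have missed the minimum without its AGO2-bound arrays, and were not recounted.

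ZNF281 showed the widest gap of any member in all 4 transfections. After miR-205 AGO2-bound minus total RNA was 5.28 ± 0.21, after miR-203 5.96 ± 0.21 and after miR-130a 4.63 ± 0.21. Under scramble it read 9.14, 9.66 and 9.41 in AGO2-bound RNA, against 2.50, 2.35 and 2.77 in total RNA, a difference of 6.86 ± 0.21 (adjusted p = 1.4e-18). Its total RNA lay between 2.35 and 3.42 on all 12 arrays, near the floor, so these differences may be compressed. ZNF200 differed by 4.69 ± 0.14 under scramble and ZNF532, a gene found fused to NUTM1 in NUT carcinoma, by 3.75 ± 0.21.

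ZNF652 ran the other way in every transfection. After miR-205 AGO2-bound minus total RNA was -4.53 ± 0.15, after miR-203 -4.16 ± 0.15 and after miR-130a -3.91 ± 0.15. Under scramble it read 3.03, 3.03 and 3.40 in AGO2-bound RNA, against 6.82, 7.02 and 7.10 in total RNA (-3.83 ± 0.15 (adjusted p = 1.2e-16)). The AGO2-bound arrays of ZNF652 stayed between 2.52 and 3.44, near the floor, while total RNA stayed between 6.82 and 7.70. Its differences may thus be compressed too. ZNF292, a tumour suppressor gene, and ZNF264 were also lower in AGO2-bound than in total RNA under scramble, by 1.70 and 1.63. ZNF106, which codes for an RNA-binding protein, differed by -1.99 ± 0.17 after miR-130a. ZNF184 and ZNF267 reached 5.06 ± 0.18 and 4.97 ± 0.24 after miR-205, against 0.38 ± 0.18 and 1.45 ± 0.24 under scramble.

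Other zinc finger genes and the partners of KRAB proteins were read for comparison. Of 36 genes with symbols that start ZFP, ZSCAN, ZKSCAN or ZBTB, 8 rose (22.2%) and 5 fell (13.9%) after miR-205 in AGO2-bound RNA, with a median of -0.02. Of 16 co-repressor genes tested, 4 rose and 4 fell, or 25% each. All genes gave 20.4% higher and 23.7% lower there, so the share of rises in the first list was near the background, as were both shares in the second. TRIM28, which KRAB domains recruit, changed by -0.50 ± 0.18 after miR-205 (adjusted p = 0.039), 2.43 ± 0.18 after miR-203 (adjusted p = 1.4e-07) and -0.05 ± 0.18 after miR-130a in AGO2-bound RNA. In total RNA TRIM28 fell after miR-203 by 0.85 ± 0.12. SETDB1 changed by -0.38 ± 0.14 after miR-205, -0.67 ± 0.14 after miR-203 and -0.40 ± 0.14 after miR-130a. The median change of the co-repressors after miR-205 was 0.04.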

How the data were processed

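The authors deposited log2 levels of probe sets, already corrected for background and summarized; per the submitters' processing notes R 2.9.0, GCRMA and RMA were used, in an order that is not given in the sources used here. Of 22277 probe sets, 19064 had 1 gene symbol in the platform annotation, and each gene was read by the probe set of highest mean. The members, classes and gene lists were chosen with earlier results of these data known. Changes were tested by lmFit and eBayes of limma 3.58.1 (R 4.3.3) with Benjamini-Hochberg adjustment over 6782 genes. AGO2-bound and total RNA arrays, 12 each, were fitted apart for changes against scramble, and all 24 together where AGO2-bound RNA was set against total RNA or the 2 changes were subtracted. The limma fit was checked with simulated data. For arrays no read depth applies, and 3 arrays per group limit the precision.

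Named genes were the 8 largest rises and 5 largest falls per microRNA with no overlap of arrays, 4 each way in total RNA, 5 each way in the difference of changes, 3 each way in AGO2-bound against total RNA, members called by all 3 microRNAs or in opposite directions, the 6 brightest, and those nearest the minimum; KRAB genes with roles on chromatin, next-ranked rises and ZNF473 were named after their values were seen. No protein table was used here, so the planned KRAB pattern search was replaced by classes written by hand. A replicate number pairs AGO2-bound arrays: deviations of same-numbered arrays correlated at 0.11 to 0.52 for miR-130a and scramble and 0.16 to 0.58 for miR-203 and scramble, as a property of the data. They did so at -0.04 to 0.52 for miR-205 and scramble, and not in total RNA. The fits reported used no replicate pairing in either kind of RNA, so the AGO2-bound errors and calls leave it out. A fit with a replicate block is among the alternatives. Alternatives changed the minimum, probe set, scaling, arrays in the fit, replicate block, variance prior, threshold and each array in turn.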

Additional observations from a re-analysis of the deposited data

Results flagged for a closer look

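The AGO2-bound change differed from the total RNA change of the same microRNA at 48 ZNF members with miR-130a, at 69 with miR-203 and at 88 with miR-205, by the test of that difference over 24 arrays. These were 30.6%, 43.9% and 56.1% of the members, against 34.5%, 49.1% and 42.8% of all genes. They cover also the 8 members that would have missed the minimum without the AGO2-bound miR-205 arrays. The members below were called in opposite directions in the 2 kinds of RNA and also passed that test. Values are the AGO2-bound change minus the total RNA change, on the log2 scale.

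After miR-205 the difference was 2.59 for ZNF688 and 1.30 for ZNF165, which rose in AGO2-bound RNA and fell in total RNA. It was -1.69 for ZNF239, -1.37 for ZNF451 and -1.31 for ZNF706, which fell in AGO2-bound RNA and rose in total RNA. For ZNF451 the AGO2-bound arrays overlapped and a second probe set showed no call in AGO2-bound RNA. The total RNA calls of ZNF688 and ZNF165 ended without scramble replicate 1, at -0.48 and -0.44.

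After miR-203 it was 1.80 for ZNF32 and 1.33 for ZNF395, with a rise in AGO2-bound RNA and a fall in total RNA. It was -2.74 for ZNF239, -1.65 for ZNF586, -1.26 for ZNF107, -1.26 for ZNF24, -1.19 for ZNF667 and -1.16 for ZNF274, with a fall in AGO2-bound RNA and a rise in total RNA.

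After miR-130a it was 0.94 for ZNF419, which rose in AGO2-bound RNA and fell in total RNA, and -2.23 for ZNF281, -2.22 for ZNF136, -1.01 for ZNF12 and -0.99 for ZNF26, which fell in AGO2-bound RNA and rose in total RNA. The total RNA call of ZNF136 ended without miR-130a replicate 1, at 0.59.

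In the limma fit with no minimum, 11 of the 74 ZNF genes outside the members (14.9%) were called higher after miR-205 in AGO2-bound RNA. Of these genes 0 were called lower, but genes this near the floor can show little fall. With no minimum that fit called 10.3% of all genes higher, brighter genes included. The share over all genes under the minimum was not counted.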

How the results depend on the processing

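Of 275 alternative counts of called members in 16 comparisons, 232 stayed within 1.5 times the count reported and 43 did not. Most of the 43 follow from fewer genes being counted or from a stricter threshold. No share of all genes called stands beside the counts of this section, and the number of members tested changes with the minimum and the probe sets. A general gain or loss of calls therefore cannot be told here from one in the ZNF members. With gene-specific probe sets only, the count was 43 for AGO2-bound RNA after miR-203 and 54 after miR-205, against scramble. It was 11, 27 and 10 in total RNA after miR-130a, miR-203 and miR-205. For the AGO2-bound change beyond total RNA it was 43 after miR-203 and 54 after miR-205, and for AGO2-bound against total RNA 51 with miR-130a, 57 with miR-203, 72 with miR-205 and 59 with scramble. For miR-205 against miR-203 it was 70 and for miR-203 against miR-130a 38. With a mean of at least 4 the AGO2-bound counts against scramble were 46 for miR-203 and 50 for miR-205, total RNA with miR-130a gave 19, and the change beyond total RNA after miR-205 gave 54. The same minimum gave 82 for AGO2-bound against total RNA after miR-205, 67 for miR-205 against miR-203 and 62 for miR-205 against miR-130a. With no minimum, total RNA after miR-205 gave 12 of 231 ZNF genes.

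At an adjusted p under 0.01 the counts were 45 for AGO2-bound RNA after miR-203, 13, 28 and 6 in total RNA after miR-130a, miR-203 and miR-205, and 30 for the excess of the miR-130a change over total RNA. With a change of at least 2-fold required they were 18 for AGO2-bound RNA after miR-130a, 25 after miR-203, 1, 1 and 0 in total RNA after miR-130a, miR-203 and miR-205, and 20 and 30 for the excess over total RNA of the miR-130a and miR-203 changes. They were 40, 41, 82 and 48 for AGO2-bound against total RNA after miR-130a, miR-203, miR-205 and scramble, 61 for miR-205 against miR-130a and 23 for miR-203 against miR-130a. Leaving out 1 array gave 18 to 27 calls in total RNA after miR-130a, where 33 were reported, and 12 to 18 after miR-205, where 20 were reported. In AGO2-bound RNA after miR-205 it gave 80 to 86. The minimum on 21 arrays, chosen after seeing the data, gave 77.

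With the replicate block the AGO2-bound counts were 81 for miR-130a, 79 for miR-203 and 94 for miR-205, against 63, 70 and 85 without it. In total RNA, where the numbers did not pair the arrays, the block gave 30, 43 and 22. The block ended no call of a named member. Of 2333 alternative values of 140 named results, 93 lost their call and 0 changed sign. Arrays give no depth; members near the floor are limited most. The cause of the other moves was not tested.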
